A study of Mus musculus with 62 samples.

Results

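Mecom, Meis1, Hlf, Prdm16, Hmga2 and Msi2 are 6 regulators of stem-cell self-renewal, taken from the 21951 protein-coding genes of the mouse annotation. Their chromatin was followed in haematopoietic stem and progenitor cells (HSPCs) after loss of the H3.3 chaperone Daxx. Each gene was described by the regions, called sites, that overlap its gene body or the 20 kb on either side of it in 14 tables of comparisons. In all, 1874 of the 1743368 listed sites lay at the 6 loci. The rule is a list of gene names and holds no measured value, but the list was drawn up with earlier results of these data known.

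The cells came from the bone marrow of C57BL/6 mice and were enriched as lineage-negative, c-Kit-positive cells. All animals carried 1 copy of Cre. WT mice were Daxx +/+ Cre +/-, Daxx-KO mice were Daxx F/F Cre +/-, and double-knockout (DKO) mice carried floxed alleles of both genes, Daxx F/F and Pu.1 F/F, with the same Cre +/-. The labels do not name the Cre line. The study's methods give Mx1Cre, an interferon-inducible Cre that acts in haematopoietic cells and also in other tissues, for the DKO mice, and both Mx1Cre and a tamoxifen-inducible Cre for Daxx-KO mice. WT mice carried Cre as well. The times of 3, 8 and 24 w.p.i. are weeks after induction. For induction, the study's methods give injections of polyinosinic:polycytidylic acid (pI:pC) in Mx1Cre mice and tamoxifen in the other line. Tamoxifen work is described there only up to 3 w.p.i. CUT&Tag was used, in which an antibody brings a transposase to the chromatin it binds and the DNA cut there is sequenced. At 3 w.p.i., 2 Daxx-KO mice were set against 2 WT mice for each of H3K27ac, H3K9me3, H3.3 and Pu.1, and at 24 w.p.i. H3K27me3 was added. At 8 w.p.i., H3K9me3 and H3K27me3 were profiled in 3 mice per genotype. Ages were not stated in the labels.

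Haematopoietic stem cells renew themselves through a small network of transcription and chromatin factors. Meis1 is a TALE homeodomain protein that works beside Hox and Pbx proteins, and Hlf is a PAR bZIP factor found in the most primitive stem cells. Mecom encodes the zinc-finger factor Evi1 and, from an upstream start, a longer form with a PR domain, while Prdm16 is its close relative. Hmga2 is a DNA-bending protein of the high-mobility-group A family that is prominent in fetal stem cells, and Msi2 is an RNA-binding protein that acts on translation. H3K27ac marks active promoters and enhancers, H3K27me3 is the mark of Polycomb repression, H3K9me3 marks heterochromatin, H3.3 is the histone variant that Daxx places with Atrx, and Pu.1 is the ETS factor, encoded by Spi1, that drives myeloid and lymphoid fate.

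A site is called gained here when every library of the first genotype lay above every library of the second, and lost when every one lay below. Other sites are called mixed. The value of a library is its normalized count, that is, its reads there after division by a scaling constant of its own. The log2 ratio compares the group means after 1 normalized count was added to each. A site is listed only if it passed the test run by the authors, so regions without a site have no value, and a second test of the same libraries was not made. With 2 libraries against 2, an exact permutation test gives no p below 0.333, and with 3 against 3 none below 0.100. Neighbouring sites share reads, fragments and mice, and they are not replicates. These are bulk cells, so a change in the share of a cell type and a change within each cell cannot be told apart.

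Depth was given only as mean reads per window, which lay between 1.21 and 33.78 for the earliest time, between 0.2 and 3.29 for 8 w.p.i. and between 3.97 and 10.3 for the latest. Libraries of a group could be very unequal, such as the WT libraries at 3 w.p.i., with 22.88 and 3.06 for H3.3 and 33.78 and 2.75 for Pu.1, and the DKO libraries of H3K9me3, with 0.67, 0.21 and 3.28. Scaling all libraries by these means in place of the authors' constants shifted the median log2 ratio of all listed sites by -0.52 to 0.54, depending on the table. Over all sites this moved the share gained among gained and lost sites from 73.1% to 53.4% for H3K9me3 in DKO against WT and from 65.1% to 49.8% in DKO against Daxx-KO. Cell-type markers moved as well. At the loci of 8 neutrophil markers, H3K27ac was gained at 85 and lost at 12 sites at 24 w.p.i., where their summed level was 61300 to 64000 normalized counts in Daxx-KO and 31400 to 35900 in WT. All 8 neutrophil markers had a listed H3K27ac site at that time. Their share gained among gained and lost sites was 87.6%, beside 42.5% over all listed sites. At the loci of 6 HSPC markers, such as Kit and Cd34, H3K27ac was gained at 60 and lost at 18 sites at 3 w.p.i. and gained at 56 and lost at 66 sites at 24 w.p.i. These shares gained were 76.9% and 45.9%, beside 40.3% and 42.5% over all listed sites, so the later count is near that of the whole table. The summed level of the HSPC markers was 4510 to 6800 in Daxx-KO and 2400 to 2590 in WT at 3 w.p.i. At 24 w.p.i. it was 19800 to 20200 in Daxx-KO and 16000 to 17400 in WT. For H3K27ac at 3 w.p.i., shares gained were 73.1% for granulocyte-monocyte progenitor, 68.6% for B-cell, 70.6% for mast-cell and basophil and 54.1% for neutrophil markers. They were 32.8% for T- and NK-cell and 38.1% for megakaryocyte markers, below the 40.3% over all listed sites. Erythroid markers had 4 gained and 23 lost H3K27ac sites at 3 w.p.i., a share gained of 14.8% beside 40.3% over all listed sites. Their summed levels were 203 to 310 in Daxx-KO and 695 to 893 in WT. The part of these cells in the results at the 6 loci was not tested.

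The 6 loci did not move together for any antibody with sites at every locus. For H3K27ac at 3 w.p.i., Daxx-KO was above WT at 85 and below it at 80 of 170 sites, where 39.4% of all listed sites were gained and 58.2% lost. Gains outnumbered losses at Meis1, Hlf and Mecom, and losses outnumbered gains at Prdm16 and Msi2. At 24 w.p.i., 116 of 253 H3K27ac sites were gained and 133 lost, close to the 41.3% gained and 56.0% lost over all listed sites.

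H3K27me3 counts differed between the comparisons. In DKO against WT at 8 w.p.i., 29 of 43 sites were gained and 8 lost, where all listed sites had 48.0% gained and 41.6% lost. DKO against Daxx-KO gave 23 gained and 7 lost of 39 sites, beside 55.9% gained and 28.5% lost over the whole table. Both comparisons use the same DKO libraries. Daxx-KO against WT at 24 w.p.i. gave the opposite balance, with 46 gained and 126 lost of 178 sites, where 40.8% of all sites were gained and 56.8% lost. No H3K27me3 comparison of Daxx-KO with WT at 8 w.p.i. was used, so genotype and time cannot be told apart in this contrast. Of the 126 losses at 24 w.p.i., 85 lay at Prdm16. Hlf (0 gained, 11 lost) and Hmga2 (4 gained, 15 lost) also leaned to losses, and Mecom had 6 gained and 8 lost. Meis1 (7 gained, 1 lost) and Msi2 (17 gained, 6 lost) leaned to gains. Markers of other cells moved in the same tables. In DKO against WT, H3K27me3 at 7 B-cell markers, 3 of which had sites, was gained at 15 and lost at 75 sites, with summed levels of 1920 to 2110 in DKO and 3410 to 4590 in WT. At 24 w.p.i., 8 markers of granulocyte-monocyte progenitors had 4 gained and 44 lost H3K27me3 sites, with sums of 8670 to 8820 for Daxx-KO and 11000 to 13400 for WT, and 7 T- and NK-cell markers had 4 gained and 35 lost. Their part in the values of the 6 loci was not tested.

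H3.3 was close to even at both times. At 3 w.p.i., 101 of 192 sites were gained and 88 lost, beside 58.7% gained and 39.7% lost in the table as a whole. The share gained among gained and lost sites moved from 53.4% to 62.7% (101 gained and 60 lost) when libraries were scaled by mean reads per window. On that scale it was 65.8% over all listed sites. At 24 w.p.i., 153 of 319 H3.3 sites were gained and 161 lost, against 51.3% and 47.0% of all listed sites. Markers of other cells moved in the 3 w.p.i. table, where 8 markers of granulocyte-monocyte progenitors had 47 gained and 5 lost H3.3 sites, with summed levels of 7610 to 7860 for Daxx-KO and 2320 to 2730 for WT. There, 6 erythroid markers had 30 gained and 7 lost H3.3 sites, and 5 megakaryocyte markers had 25 gained and 9 lost. Their part in the H3.3 values of the 6 loci was not tested.

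For Pu.1, losses outnumbered gains at both times. At 3 w.p.i., 85 of 201 sites were gained and 112 lost, where 55.3% of all listed sites were gained and 42.8% lost. This order depended on the scaling, since with mean reads per window 85 sites were gained and 66 lost. The share gained among gained and lost sites was then 56.3%, beside 63.8% over all listed sites on the same scale. At 24 w.p.i., 138 of 346 Pu.1 sites were gained and 196 lost, where the whole table had 46.9% gained and 51.3% lost. The markers of granulocyte-monocyte progenitors had 43 gained and 12 lost Pu.1 sites at 3 w.p.i. and 16 gained and 23 lost at 24 w.p.i., with summed levels of 7820 to 8430 for Daxx-KO and 3110 to 3910 for WT at the earlier time and 1460 to 1730 and 1910 to 1980 at the later. Erythroid markers had 29 gained and 7 lost Pu.1 sites at 3 w.p.i. The part of these cells in the Pu.1 values was not tested.

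H3K9me3 sites were few before 24 w.p.i. At 3 w.p.i., 7 of 10 were gained and 3 lost, beside 78.5% gained and 21.1% lost over all sites. In Daxx-KO against WT at 8 w.p.i., all 4 sites at the loci were lost, where 56.8% of all listed sites were gained and 32.3% lost. DKO against WT at 8 w.p.i. held 1 gained and 1 mixed site (48.0% gained and 17.7% lost in the whole table), and DKO against Daxx-KO held 2 gained sites and 1 lost site (45.5% gained and 24.3% lost in the whole table). At 24 w.p.i., 69 of 114 H3K9me3 sites were gained and 39 lost, where 46.9% of all sites were gained and 50.3% lost. Prdm16 held 35 and Msi2 22 of those 69 gains.

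**Figure D1:**
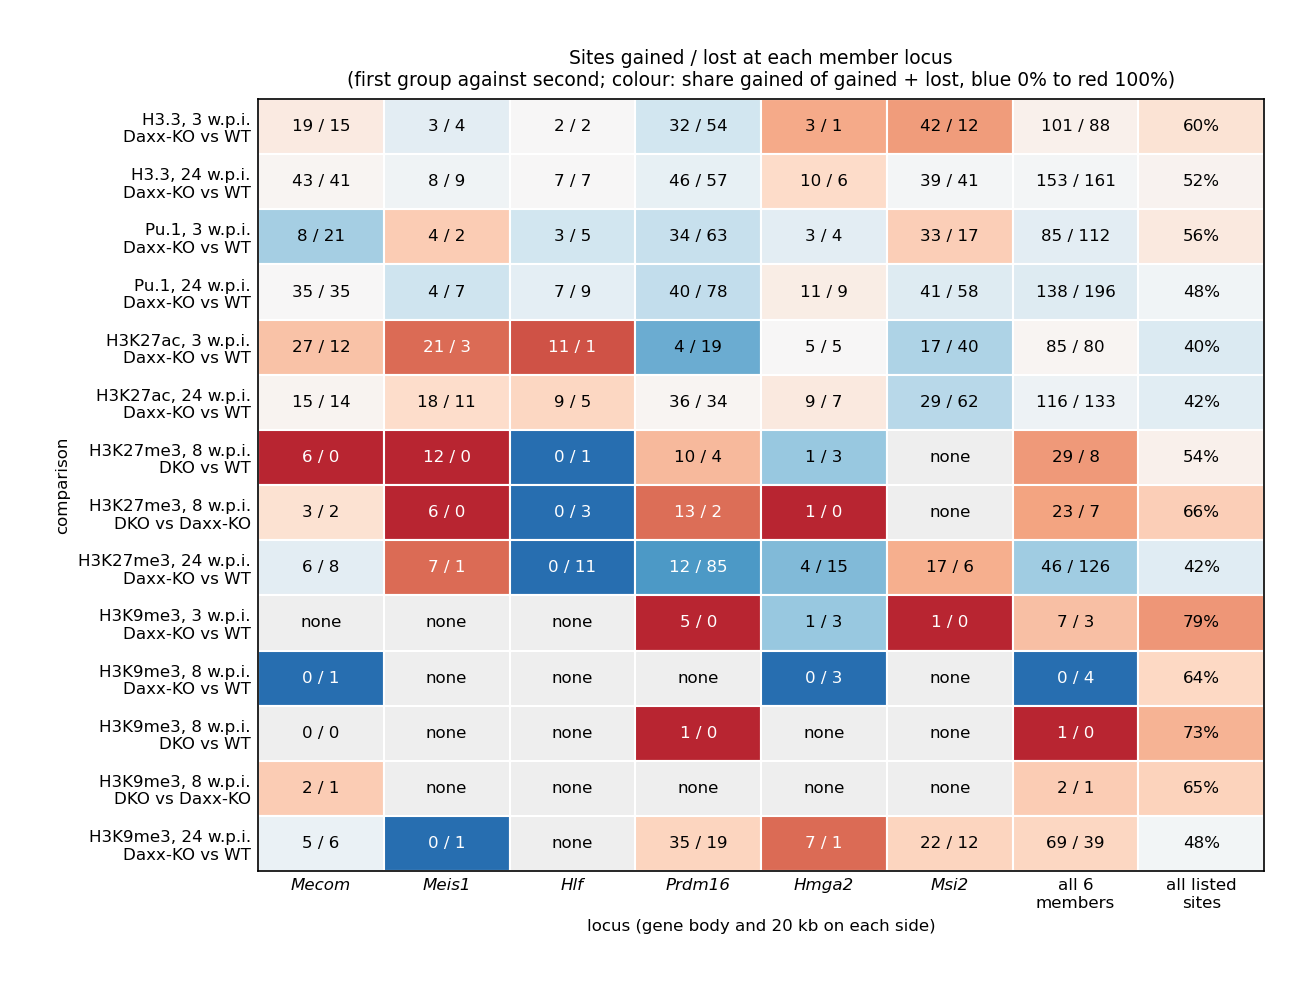
Number of sites gained and lost at each locus (columns, gene body and 20 kb on each side) in each comparison (rows). The colour gives the share gained among gained and lost sites, from blue (none) to red (all), and the last column gives that share over all listed sites. Meis1 and Hlf are red for H3K27ac at 3 w.p.i., Meis1 stays red in all 3 H3K27me3 comparisons, and Hlf is blue in them.

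Meis1 (ENSMUSG00000020160.18, chr11:18879817-19018985 of mm10, minus strand) had the most one-sided gain of H3K27ac at 3 w.p.i. among the 4 loci with more than 20 sites. There, 21 of its 26 H3K27ac sites were gained and 3 lost, a share gained of 87.5% where all listed sites had 40.3%. The median log2 ratio was 1.79 at Meis1 and -1.80 over all listed sites. The site with the highest mean, chr11:19013301-19014800 in an intron near the start of the gene, was at 239 and 239 normalized counts in Daxx-KO against 141 and 141 in WT (log2 ratio 0.76). Both Daxx-KO libraries lay well above both WT libraries, and the libraries of a genotype were almost equal. Further along the gene, chr11:18948551-18950600 was at 227 and 226 in Daxx-KO versus 107 and 81.6 in WT.

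At 24 w.p.i., 18 of the 29 H3K27ac sites at Meis1 were gained and 11 lost, a share of 62.1% beside 42.5% over all sites. The gains and losses lay in different places. Within 20 kb of the start of the gene, inside or outside it, all 6 sites were gained, and within 20 kb of its end all 7 were gained, while 5 were gained and 11 lost among the 16 sites between. This division was chosen after the values were seen. The highest site, chr11:19013151-19017500, overlaps an annotated start and was at 1356 and 1134 in Daxx-KO against 573 and 421 in WT (log2 ratio 1.32). At the first start of the gene, chr11:19018401-19020250 was at 496 and 422 in Daxx-KO versus 378 and 171 in WT (log2 ratio 0.74, and 1.42 without WT replicate 1). The WT libraries differed more from each other there, but the genotypes did not overlap. In the interior, chr11:18984101-18984700 was lost, with 4.50 and 0 in Daxx-KO against 42.5 and 42.7 in WT.

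The same 2 ends of Meis1 carried the H3K27me3 sites. In DKO against WT at 8 w.p.i., where 48.0% of all listed sites were gained, all 12 sites were gained. They lay 6 at each end and none in the interior, and they covered 34550 bp. The largest ran over chr11:19007201-19020050, a length of 12850 bp from inside the gene to beyond its first start. There, the DKO libraries were at 1981, 606 and 999 normalized counts and the WT libraries at 338, 243 and 279 (log2 ratio 2.06). One DKO library stood far above the others, yet the lowest DKO value was above the highest WT value. At the other end, chr11:18872251-18877850 lies downstream of the gene and was at 1443, 625 and 596 in DKO and at 381, 333 and 317 in WT.

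Against Daxx-KO, 6 of the 8 H3K27me3 sites at Meis1 were gained in DKO and none was lost. Over all listed sites, 55.9% were gained and 28.5% lost. Just upstream of the start, chr11:19021451-19022750 was at 152, 147 and 113 in DKO and at 84.0, 68.5 and 70.4 in Daxx-KO (log2 ratio 0.88). The 2 sites nearest to annotated starts were mixed, because 1 DKO library was below all 3 Daxx-KO libraries at each. In Daxx-KO against WT at 24 w.p.i., 7 of 10 sites were gained and 1 lost, with smaller ratios. All listed sites had 40.8% gained and 56.8% lost. At chr11:19012301-19013850, Daxx-KO was at 649 and 552 and WT at 407 and 407 (log2 ratio 0.56). That site overlaps the H3K27ac site chr11:19011651-19013100, where Daxx-KO was at 166 and 120 and WT at 33.5 and 42.7, so both marks were higher in Daxx-KO over the same intron. The H3K27me3 site with the highest mean at Meis1, chr11:19027001-19027600, was mixed, with 889 and 863 in Daxx-KO versus 850 and 1292 in WT.

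H3.3 and Pu.1 sites were few at Meis1 and of both directions. At the first start, H3.3 was listed at 0 in both Daxx-KO libraries and at 73.8 and 103 in WT at 24 w.p.i. (chr11:19018851-19019550). At 3 w.p.i. the H3.3 site nearest to a start, chr11:19015851-19016450, was at 26.1 and 23.6 in Daxx-KO against 44.2 and 73.3 in WT, and it was mixed when scaled by mean reads per window. Pu.1 over chr11:19008351-19008950 was at 44.9 and 47.8 in Daxx-KO versus 21.9 and 0 in WT at 3 w.p.i. The genotypes were apart at each of these sites, but with few counts in some libraries. The only H3K9me3 site at Meis1, chr11:18888151-18888800 at 24 w.p.i., was lost, with 10.2 and 1.04 in Daxx-KO against 40.4 and 33.7 in WT.

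The promoter of Meis1 is shown because H3.3, H3K27ac and H3K27me3 sites all covered it. The 250 bases before the start, chr11:19018970-19019219 on the minus strand of mm10 (RefSeq), held 13 CG dinucleotides, and 31.8% of the promoters of the same length had at least as many. Their GC content was 59.6%. CG dinucleotides are in capitals.
Meis1 promoter: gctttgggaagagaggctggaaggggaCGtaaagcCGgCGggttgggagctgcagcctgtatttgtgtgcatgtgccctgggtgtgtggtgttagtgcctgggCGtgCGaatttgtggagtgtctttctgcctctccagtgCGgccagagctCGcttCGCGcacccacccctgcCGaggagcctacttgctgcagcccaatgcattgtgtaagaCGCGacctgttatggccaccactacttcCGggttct

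**Figure D2:**
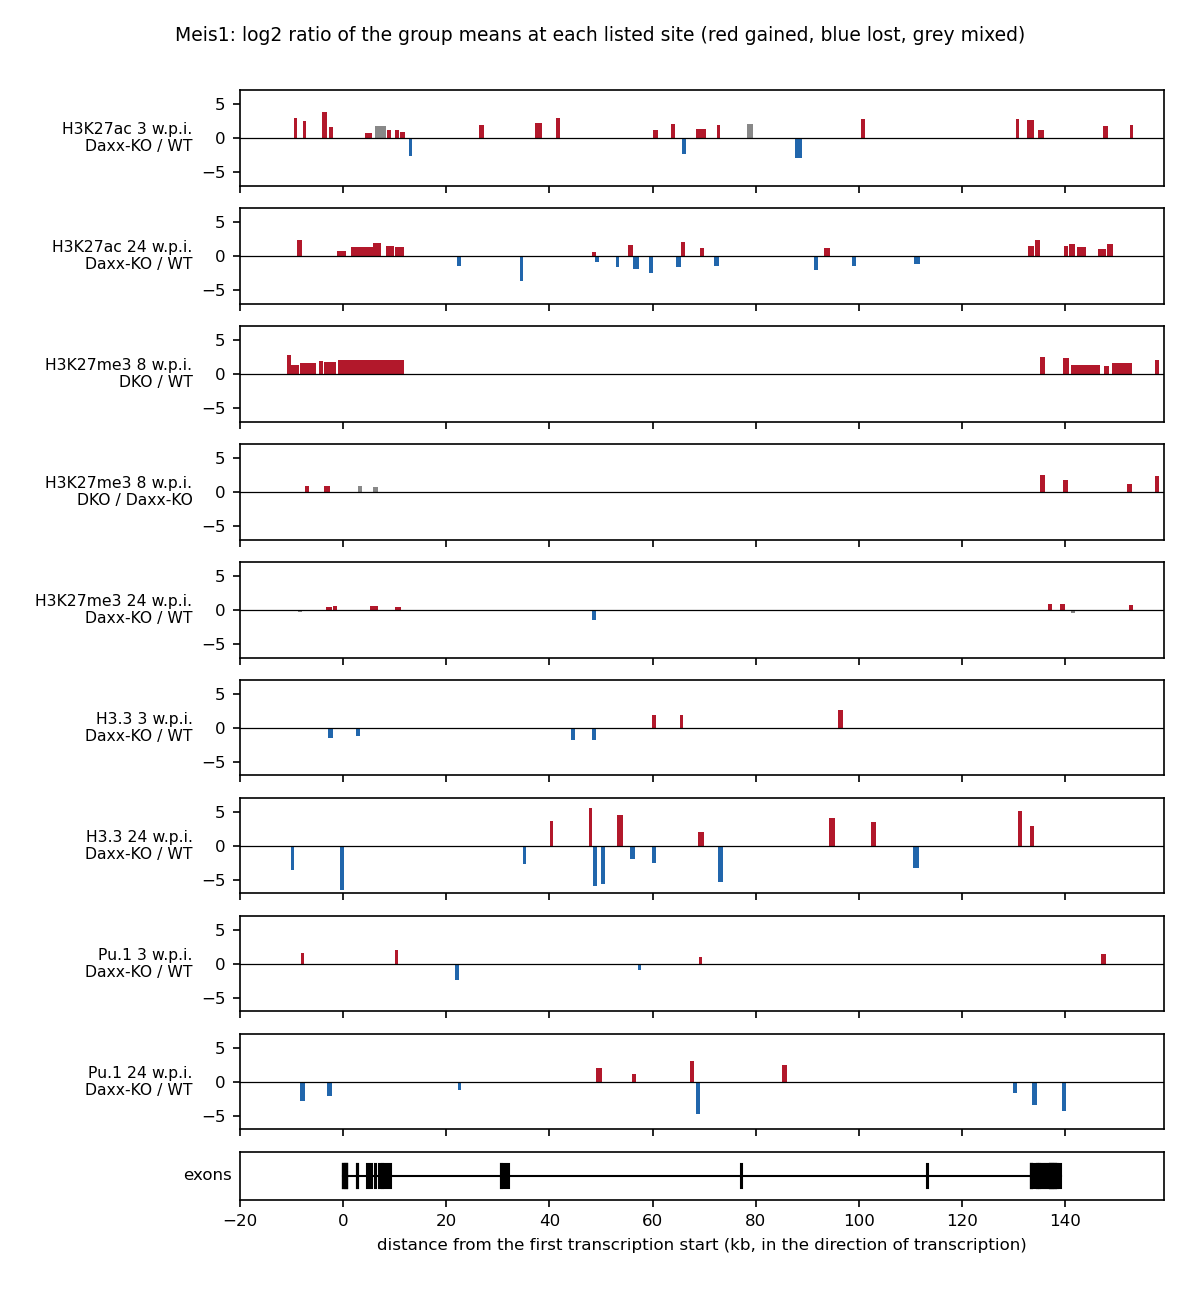
Listed sites along Meis1 for each antibody, time and comparison. The horizontal axis is the distance from the first transcription start in kb, the vertical axis is the log2 ratio of the group means with 1 added to each, each bar spans a site, and red, blue and grey mark gained, lost and mixed sites. Exons are the black boxes at the bottom. H3K27me3 at 8 w.p.i. in DKO over WT forms red blocks at both ends of the gene with nothing between them, and H3K27ac at 24 w.p.i. is red at both ends and mostly blue between.

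Hlf (ENSMUSG00000003949.16, chr11:90336536-90390895, minus strand) resembled Meis1 for H3K27ac and differed from it for H3K27me3. At 3 w.p.i., 11 of its 13 H3K27ac sites were gained and 1 lost, a share of 91.7% beside 40.3% over all sites. The highest site, chr11:90381951-90382550, lies by an internal start and was at 61.1 and 45.0 normalized counts in Daxx-KO versus 20.4 and 24.3 in WT (log2 ratio 1.21). At a start near the 5′ end, chr11:90389251-90389900 was at 52.3 and 11.0 in Daxx-KO against 6.45 and 8.83 in WT. One Daxx-KO library carried most of the difference there, and the other was only just above WT.

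By 24 w.p.i., 9 of the 14 H3K27ac sites at Hlf were gained and 5 lost, beside 42.5% gained among gained and lost sites of the whole table. The highest site, chr11:90387151-90388200, was at 205 and 198 in Daxx-KO versus 96.1 and 131 in WT (log2 ratio 0.82). The site at that start, chr11:90389651-90390450, was at 69.7 and 73.2 in Daxx-KO against 23.5 and 29.3 in WT (log2 ratio 1.40). Both sites had close values within a genotype. A site by an internal start, chr11:90380901-90381550, was lost, at 14.2 and 24.9 in Daxx-KO versus 84.9 and 32.4 in WT, and was mixed when scaled by mean reads per window.

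Against WT, H3K27me3 at Hlf was lower in Daxx-KO at every listed site. At 24 w.p.i., all 11 sites were lost, where 56.8% of all listed sites were lost. The main site spans 5300 bp over the start, chr11:90385751-90391050, and was at 828 and 690 in Daxx-KO against 1488 and 2149 in WT (log2 ratio -1.26). Its mean per kb was 143 normalized counts in Daxx-KO and 343 in WT. The H3K27ac sites gained at 24 w.p.i., chr11:90387151-90388200 and chr11:90389651-90390450, lie inside it. Downstream, chr11:90317851-90318600 was at 0 and 0.92 in Daxx-KO versus 45.8 and 34.3 in WT, a distal site with low values.

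At 8 w.p.i., Hlf had 1 H3K27me3 site in DKO against WT and 3 in DKO against Daxx-KO, and all were lost in DKO. Of all listed sites, 41.6% and 28.5% were lost in these comparisons. In an intron, chr11:90384651-90385500 was at 52.7, 18.1 and 4.96 in DKO and at 100, 55.4 and 68.4 in Daxx-KO (log2 ratio -1.53, and -2.60 without DKO replicate 1). The DKO libraries were spread widely, and the highest was just below the lowest Daxx-KO library. The site chr11:90380901-90381650 was at 4.53, 5.24 and 0 in DKO and at 22.7, 10.9 and 16.8 in WT. All 6 values of this site are low, and they do not overlap.

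H3.3 was gained at the same start of Hlf at both times, in mice that the 2 tables do not share. At 3 w.p.i., chr11:90389751-90390400 was at 56.1 and 33.9 in Daxx-KO against 7.71 and 15.7 in WT (log2 ratio 1.85). At 24 w.p.i., chr11:90389451-90390350 was at 59.6 and 29.4 in Daxx-KO versus 3.69 and 0 in WT. At an internal start, however, chr11:90382101-90382800 was listed at 0 in both Daxx-KO libraries at 24 w.p.i. and at 33.2 and 48.9 in WT. Pu.1 at Hlf was gained at 7 and lost at 9 of 16 sites at 24 w.p.i., a share gained of 43.8% beside 47.8% over all listed sites, and within 20 kb of the start 3 were gained and 3 lost. Among the losses, chr11:90388401-90389500 was at 0 and 6.27 in Daxx-KO against 51.8 and 36.8 in WT. Upstream, chr11:90394051-90395700 was at 10.9 and 16.7 in Daxx-KO versus 104 and 138 in WT (log2 ratio -3.04). No H3K9me3 site was listed at Hlf in any comparison.

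The Hlf promoter is shown because the long H3K27me3 site lost at 24 w.p.i. covered the bases next to the start. The 250 bases before the RefSeq start, chr11:90390918-90391167 on the minus strand of mm10, held 26 CG dinucleotides, a number reached by 9.24% of promoters, with a GC content of 67.2%. CG dinucleotides are in capitals.
Hlf promoter: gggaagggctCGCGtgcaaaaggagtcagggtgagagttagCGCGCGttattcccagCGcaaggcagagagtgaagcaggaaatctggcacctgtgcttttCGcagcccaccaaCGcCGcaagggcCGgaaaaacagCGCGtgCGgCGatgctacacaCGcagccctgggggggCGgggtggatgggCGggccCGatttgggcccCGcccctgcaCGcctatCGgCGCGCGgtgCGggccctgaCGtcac

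**Figure D3:**
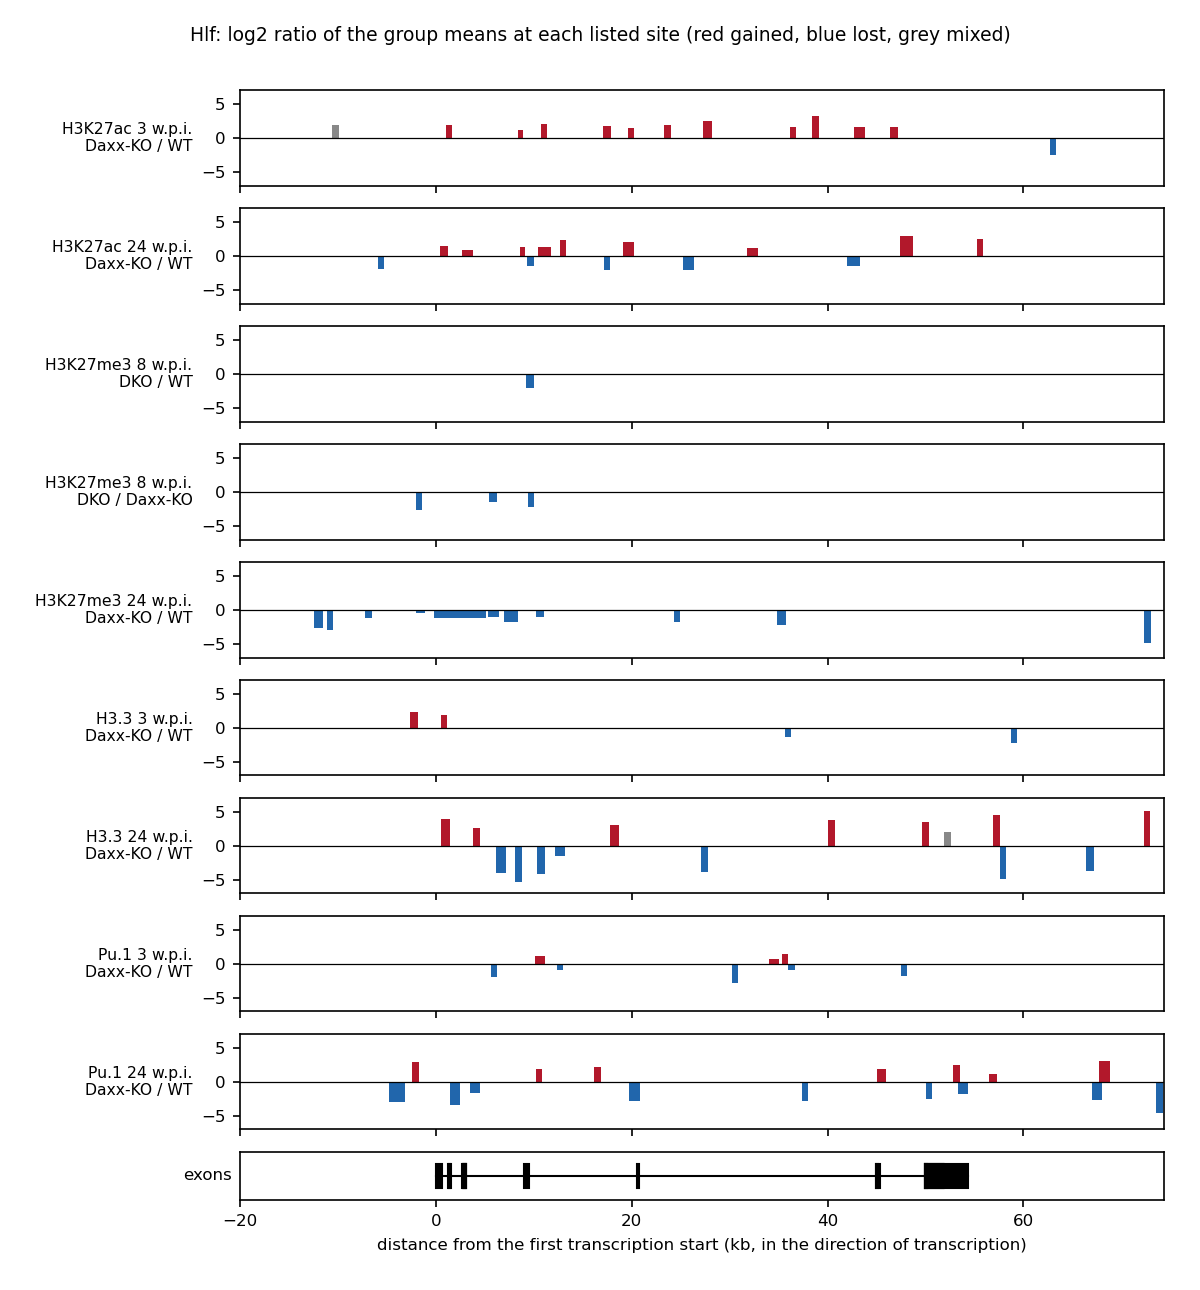
Listed sites along Hlf for each antibody, time and comparison, with axes and colours as in the map of Meis1: distance from the first transcription start in kb, log2 ratio of the group means with 1 added, red gained, blue lost, grey mixed, exons in black. H3K27ac at 3 w.p.i. is red at 11 of 13 sites and H3K27me3 at 24 w.p.i. is blue at all 11.

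Mecom (ENSMUSG00000027684.16, chr3:29951296-30548008, minus strand) has 16 annotated starts, and its sites for each antibody were divided. H3K27ac was gained at 27 and lost at 12 of 39 sites at 3 w.p.i., a share of 69.2% beside 40.3% over all listed sites. With a mean of at least 20 normalized counts in the higher group, the share gained was 83.3%, but this filter was not applied to all listed sites. By 24 w.p.i. the count was 15 gained and 14 lost, 51.7% beside 42.5%. At 3 w.p.i. the highest site, chr3:30455551-30456250, was at 51.4 and 93.5 in Daxx-KO against 27.9 and 29.8 in WT (log2 ratio 1.30). At 24 w.p.i. the highest, chr3:30507701-30508900 by an internal start, was at 323 and 323 in Daxx-KO versus 194 and 147 in WT (log2 ratio 0.92). Daxx-KO libraries were above WT libraries at both sites.

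H3K27me3 at Mecom was listed at few sites. In DKO against WT at 8 w.p.i., 6 of 9 sites were gained and none lost, where 48.0% of all listed sites were gained and 41.6% lost. At chr3:30512001-30513100, DKO was at 191, 124 and 167 and WT at 103, 97.8 and 77.1, with no overlap. The site with the highest mean, chr3:30510001-30510950, was mixed, with DKO at 265, 121 and 195 and WT at 135, 109 and 118. At 24 w.p.i., 6 of 14 sites were gained and 8 lost, a share gained of 42.9% near the 41.8% over all listed sites. Neighbours differed in direction. At chr3:30012451-30013500, which covers a start, Daxx-KO was at 565 and 477 and WT at 373 and 348 (log2 ratio 0.53). Next to it, chr3:30011801-30012450 was lost, at 326 and 326 in Daxx-KO against 396 and 561 in WT.

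H3.3 at Mecom was gained at 19 and lost at 15 of 34 sites at 3 w.p.i. and gained at 43 and lost at 41 of 84 at 24 w.p.i., and the shares gained of 55.9% and 51.2% were near the 59.7% and 52.2% over all listed sites. An intronic site at 3 w.p.i., chr3:30029651-30031600, was the highest and was at 178 and 203 in Daxx-KO versus 0.70 and 41.9 in WT. WT libraries differed strongly from each other there. Pu.1 was gained within it, at chr3:30030051-30031100, with 154 and 115 in Daxx-KO against 0 and 67.1 in WT. In total, Pu.1 was gained at 8 and lost at 21 of 29 sites at 3 w.p.i., and gained at 35 and lost at 35 of 73 sites at 24 w.p.i., shares of 27.6% and 50.0% beside 56.4% and 47.8% over all listed sites. Upstream of the first start, chr3:30548801-30550000 was at 121 and 87.8 in Daxx-KO versus 11.5 and 14.7 in WT at 24 w.p.i. By an internal start, chr3:30139451-30140200 was lost at the same time, with 0 and 1.04 in Daxx-KO against 31.7 and 48.4 in WT. H3K9me3 had 5 gained and 6 lost sites of 11 at 24 w.p.i., a share gained of 45.5% near the 48.2% over all listed sites. The highest of the 11, chr3:30160551-30161700, was at 52.3 and 106 in Daxx-KO versus 21.8 and 16.9 in WT. At 8 w.p.i. the only H3K9me3 site in Daxx-KO against WT, chr3:30036301-30037250, was listed at 0 in all 3 Daxx-KO libraries and at 6.32, 11.8 and 9.99 in WT, all low values. In DKO against Daxx-KO the highest H3K9me3 site, chr3:30030251-30031400, was lost, at 16.3, 16.3 and 10.9 in DKO and 41.2, 81.9 and 18.5 in Daxx-KO. That site was mixed when scaled by mean reads per window.

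Prdm16 (ENSMUSG00000039410.16, chr4:154316125-154636873, minus strand) had the densest sites of the 6 loci in the H3.3 and Pu.1 tables and in the 24 w.p.i. table of H3K27me3. At 24 w.p.i. it held 28.0 H3K27me3 sites per 100 kb, where the 6 loci together held 9.65. The window also overlaps the protein-coding genes Arhgef16 and B230104I21Rik. Of those 101 H3K27me3 sites, 12 were gained and 85 lost, a share gained of 12.4% beside 41.8% over all listed sites, and 20.9% with 50 kb on each side. Of the 101 sites, 96 had their middle in an intron of the gene. Inside the gene and more than 20 kb from its ends, 77 of 89 sites were lost, a division chosen after the values were seen. Around an internal start, chr4:154528951-154530700 was at 20.7 and 29.4 normalized counts in Daxx-KO against 162 and 82.8 in WT (log2 ratio -2.24). Within an intron, chr4:154544201-154544900 was at 13.6 and 7.36 in Daxx-KO versus 48.6 and 92.8 in WT (log2 ratio -2.64). The site over the first start, chr4:154636651-154637700, was the highest and was mixed, with 1175 and 1192 in Daxx-KO against 1062 and 2185 in WT. The Daxx-KO libraries fell between the WT libraries there.

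In DKO, H3K27me3 at Prdm16 leaned to gains at 8 w.p.i. Against WT, 10 of 16 sites were gained and 4 lost, and against Daxx-KO 13 of 18 were gained and 2 lost. The shares gained were 71.4% and 86.7%, beside 53.6% and 66.3% over all listed sites, which also leaned to gains. The site over the first start was mixed, with 678, 258 and 106 in DKO and 134, 136 and 207 in WT. The gained sites were low. The gain with the largest ratio against Daxx-KO, chr4:154432151-154432850, was at 16.3, 19.1 and 12.4 in DKO and at 0, 6.52 and 0 in Daxx-KO.

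H3K27ac at Prdm16 differed between the times. At 3 w.p.i., 4 of 23 sites were gained and 19 lost, and at 24 w.p.i. 36 of 71 were gained and 34 lost, shares of 17.4% and 51.4% beside 40.3% and 42.5% over all listed sites. At chr4:154541951-154542700, the highest site at 3 w.p.i., Daxx-KO was at 47.5 and 27.2 and WT at 78.4 and 83.9, a loss that became mixed when scaled by mean reads per window. Around an internal start, chr4:154348201-154348900 was at 46.5 and 33.7 in Daxx-KO versus 0 and 4.75 in WT at 24 w.p.i. All 4 H3K27ac sites within 1 kb of a Prdm16 start were gained at 24 w.p.i., and the only such site at 3 w.p.i. was lost. No share over all listed sites near starts was computed to set beside these counts.

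H3.3 at Prdm16 was gained at 32 and lost at 54 of 88 sites at 3 w.p.i., a share gained of 37.2% beside 59.7% in the whole table. All 5 sites within 1 kb of a start were gained, but no share over all listed sites near starts was computed. The paper reports more H3.3 at promoters and less at distal regions in Daxx-KO at this time, so such gains need not be particular to Prdm16. Just upstream of the first start, chr4:154637201-154639250 was at 220 and 157 in Daxx-KO against 80.6 and 41.9 in WT (log2 ratio 1.60). At 24 w.p.i. the site over the first start, chr4:154636651-154637450, was lost, with 1.1 and 0 in Daxx-KO versus 60.0 and 39.5 in WT. These 2 sites overlap, and they come from different mice. At an internal start the direction was shared. There chr4:154528951-154529600 was at 70.3 and 67.8 in Daxx-KO against 45.6 and 15.7 in WT at 3 w.p.i., and chr4:154529001-154529750 was at 64.0 and 45.3 in Daxx-KO versus 7.38 and 15.0 in WT at 24 w.p.i.

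Pu.1 at Prdm16 was gained at 34 and lost at 63 of 101 sites at 3 w.p.i., and gained at 40 and lost at 78 of 123 at 24 w.p.i. With mean reads per window as the scale, the count at 3 w.p.i. was 34 gained and 34 lost. The share gained over all listed sites was then 63.8%. The highest site at 3 w.p.i., chr4:154385351-154387250, was at 109 and 94.8 in Daxx-KO against 192 and 339 in WT, and it was mixed on that scale. At 24 w.p.i. the highest, chr4:154613401-154615200, was at 47.7 and 141 in Daxx-KO versus 250 and 235 in WT (log2 ratio -1.35, and -2.32 without Daxx-KO replicate 2). The shares gained of 35.1% and 33.9% lie below the 56.4% and 47.8% over all listed Pu.1 sites. H3K9me3 was gained at all 5 of its sites at 3 w.p.i., where 78.5% of all listed sites were gained, so this count is close to that of the whole table. At 24 w.p.i. it was gained at 35 and lost at 19 of 60 sites, a share of 64.8% beside 48.2%. Upstream of the gene, chr4:154646751-154648250 was at 34.9 and 48.3 in Daxx-KO against 5.25 and 9.86 in WT at 3 w.p.i. (log2 ratio 2.32). At the same place in DKO against WT at 8 w.p.i., chr4:154646701-154647300 was at 8.62, 3.45 and 10.7 in DKO and at 0, 0.99 and 2.15 in WT. Over an internal start, chr4:154528651-154530200 was at 56.7 and 196 in Daxx-KO versus 15.5 and 15.0 in WT at 24 w.p.i., where H3K27me3 was lost.

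Hmga2 (ENSMUSG00000056758.14, chr10:120361275-120476469, minus strand) had sites of opposite direction for the 2 repressive marks at 24 w.p.i. H3K27me3 was gained at 4 and lost at 15 of 19 sites, a share gained of 21.1% beside 41.8% over all listed sites. Downstream of the gene, chr10:120341501-120342450 was at 6.38 and 11.0 normalized counts in Daxx-KO against 54.2 and 42.8 in WT (log2 ratio -2.35). Upstream of the start, the highest H3K27me3 site, chr10:120477651-120478250, was at 580 and 433 in Daxx-KO versus 652 and 674 in WT. The ratio there was small, and the site was mixed when scaled by mean reads per window. In DKO against Daxx-KO at 8 w.p.i., chr10:120474001-120475400 near the start was mixed, with 313, 59.3 and 122 in DKO and 288, 288 and 291 in Daxx-KO. The 3 Daxx-KO libraries were nearly identical, and the DKO libraries were not.

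H3K9me3 at Hmga2 was gained at 7 of 8 sites at 24 w.p.i., where 46.9% of all listed sites were gained. The highest, chr10:120366451-120368450 in an intron near the end of the gene, was at 300.3 and 453 in Daxx-KO against 82.4 and 141 in WT (log2 ratio 1.75). At earlier times the sites in that intron had the opposite direction. At 3 w.p.i., chr10:120363851-120365000 was listed at 0 in both Daxx-KO libraries and at 17.5 and 27.8 in WT. At 8 w.p.i., chr10:120363851-120364900 was at 0 in all 3 Daxx-KO libraries and at 7.90, 18.6 and 18.7 in WT, and chr10:120366201-120367150 was at 0 in all 3 Daxx-KO libraries and at 13.4, 6.75 and 38.7 in WT. The early values are low, and the 3 times come from different mice. Of 3 overlapping pairs of H3K9me3 sites at 3 and 24 w.p.i., 2 were lost then gained and 1, upstream of the gene, was gained at both.

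H3K27ac at Hmga2 was even at 3 w.p.i., with 5 gained and 5 lost sites, and had 9 gained and 7 lost at 24 w.p.i. The shares gained were 50.0% and 56.2%, beside 40.3% and 42.5% over all listed sites. Both sites by the start were gained at 24 w.p.i. Over an annotated start, chr10:120475601-120476450 was at 74.2 and 58.6 in Daxx-KO versus 15.6 and 4.75 in WT (log2 ratio 2.59, and 3.55 without WT replicate 1). The highest H3K27ac site, chr10:120365251-120366500, lay in the intron with the H3K9me3 sites and was at 612 and 549 in Daxx-KO against 284 and 422 in WT (log2 ratio 0.72). H3.3 and Pu.1 were both gained just upstream of the start at 3 w.p.i. H3.3 over chr10:120476701-120477350 was at 77.4 and 68.5 in Daxx-KO versus 37.9 and 2.62 in WT, and Pu.1 over chr10:120476901-120478100 was at 77.2 and 148 in Daxx-KO against 26.1 and 25.6 in WT (log2 ratio 2.08). At 24 w.p.i. H3.3 was gained at 10 and lost at 6 of 16 sites, and Pu.1 at 11 and 9 of 21. The shares gained were 62.5% and 55.0%, beside 52.2% and 47.8% over all listed sites. In the gene, H3.3 over chr10:120419001-120420650 was at 139 and 111 in Daxx-KO versus 3.69 and 10.3 in WT (log2 ratio 3.97, and 4.75 without WT replicate 2).

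Msi2 (ENSMUSG00000069769.13, chr11:88339382-88718513, minus strand) was the locus where H3K27ac losses outnumbered gains at both times. At 3 w.p.i., 17 of 59 sites were gained and 40 lost, and at 24 w.p.i. 29 of 94 were gained and 62 lost. The shares gained of 29.8% and 31.9% lie below the 40.3% and 42.5% over all listed sites. At the first start, chr11:88717551-88718600 was at 34.9 and 19.5 normalized counts in Daxx-KO against 55.9 and 106 in WT at 3 w.p.i. (log2 ratio -1.54), and it was mixed when scaled by mean reads per window. At 24 w.p.i. the site over the start, chr11:88718001-88718850, was gained, at 324 and 413 in Daxx-KO versus 280 and 235 in WT (log2 ratio 0.51). Its neighbour inside the gene, chr11:88717251-88717850, was lost, at 19.5 and 2.93 in Daxx-KO against 51.4 and 43.5 in WT. The highest H3K27ac site at 24 w.p.i., chr11:88598401-88600000 in an intron, was at 788 and 776 in Daxx-KO versus 395 and 577 in WT (log2 ratio 0.68). Gained and lost sites thus lay side by side.

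H3K27me3 at Msi2 was listed only at 24 w.p.i., and 17 of 23 sites were gained and 6 lost, beside 41.8% gained among gained and lost sites of the whole table. Many of the gained sites are neighbours. When sites of a direction within 1 kb were joined, 6 were gained and 6 lost. All 4 sites within 20 kb of the first start, inside or outside the gene, were gained. Over the start, chr11:88718101-88719650 was at 723 and 738 in Daxx-KO against 374 and 600 in WT (log2 ratio 0.58). Just inside the gene, chr11:88716551-88718000 was at 158 and 208 in Daxx-KO versus 70.0 and 57.1 in WT (log2 ratio 1.51).

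H3.3 at Msi2 was gained at 42 and lost at 12 of 55 sites at 3 w.p.i., a share of 77.8% beside 59.7% in the whole table, and gained at 39 and lost at 41 of 81 at 24 w.p.i. The later share gained was 48.8%, beside 52.2% over all listed sites. The highest site at 3 w.p.i., chr11:88367101-88368900, was at 170 and 186 in Daxx-KO against 65.9 and 31.4 in WT (log2 ratio 1.85, and 2.47 without WT replicate 1). At an internal start, chr11:88589401-88591050 was at 149 and 174 in Daxx-KO versus 29.5 and 41.4 in WT at 24 w.p.i. (log2 ratio 2.16). Pu.1 was gained at 33 and lost at 17 of 50 sites at 3 w.p.i., or 33 and 7 when scaled by mean reads per window, and gained at 41 and lost at 58 of 102 at 24 w.p.i. The share gained at 24 w.p.i. was 41.4% beside 47.8% in the whole table. At 3 w.p.i. the whole table had 56.4%, or 63.8% when scaled by mean reads per window. Starts at the 5′ end held a Pu.1 site at 3 w.p.i., chr11:88717851-88718500, at 54.4 and 47.8 in Daxx-KO against 8.36 and 6.39 in WT. At 24 w.p.i. the highest Pu.1 site, chr11:88412951-88414150, was at 401 and 148 in Daxx-KO versus 13.0 and 14.7 in WT (log2 ratio 4.21, and 3.33 without Daxx-KO replicate 1). Both Daxx-KO libraries were far above WT there, but they differed from each other by more than the WT libraries did. Of 34 H3K9me3 sites at 24 w.p.i., 22 were gained and 12 lost, a share of 64.7% beside 48.2% over all listed sites. The highest, chr11:88378901-88379750, was at 37.0 and 191 in Daxx-KO against 12.4 and 18.7 in WT. Its only site at 3 w.p.i., chr11:88588551-88589350 by an internal start, was at 9.30 and 10.0 in Daxx-KO versus 0 and 1.74 in WT.

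**Figure D4:**
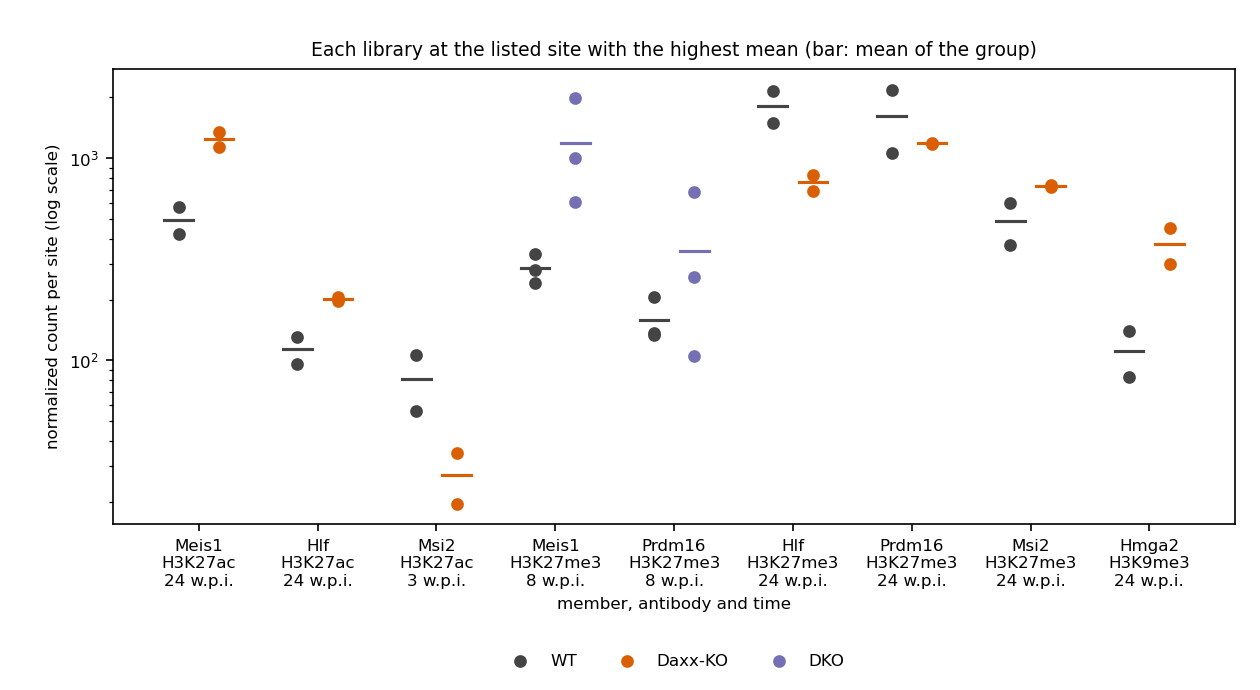
Normalized count of every library (log scale) at the listed site with the highest mean, for 9 combinations of gene, antibody and time. Points are libraries, bars are group means, and WT is grey, Daxx-KO orange and DKO purple. The groups are apart at Meis1, Hlf, Msi2 and Hmga2, and they overlap at Prdm16, where the 2 Daxx-KO libraries (1175 and 1192) lie between the WT libraries (1062 and 2185) at 24 w.p.i. The Msi2 loss of H3K27ac at 3 w.p.i. was mixed when scaled by mean reads per window.

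The sequence under the Pu.1 sites was read from mm10. Pu.1 is known to bind purine-rich DNA with a GGAA core, and the 6-base word GAGGAA was searched on both strands in the central 600 bp of each site. At the 6 loci, 46.8% of 201 Pu.1 sites held it at 3 w.p.i. and 48.3% of 346 at 24 w.p.i., close to the 44.5% and 46.0% of all listed Pu.1 sites. At 24 w.p.i. it was in 65 of 138 gained and 97 of 196 lost Pu.1 sites of the 6 loci, shares of 47.1% and 49.5%. The word was in 23.1% of the 27025 promoters of 250 bases, and in no promoter of the 6 genes. A match is a description of the letters and not a site of binding.

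A Pu.1 site is shown for Mecom, Hlf, Hmga2 and Msi2, to let the word be seen in its place. Each is 120 bases of mm10 from the site described beside it, and GAGGAA is in capitals. For Mecom it is chr3:30563773-30563892 (minus strand), in the highest Pu.1 site at 24 w.p.i., which was gained, at 214 and 133 in Daxx-KO against 60.5 and 61.1 in WT. For Hlf it is chr11:90379897-90380016 (plus strand), in the highest site at 3 w.p.i., gained at 93.0 and 81.9 in Daxx-KO against 26.6 and 54.3 in WT. The Hlf site overlapped a site gained at 24 w.p.i. as well, and its sequence holds the word at 2 places. For Hmga2 it is chr10:120412389-120412508 (plus strand), in the highest site at 24 w.p.i., which was mixed, at 0 and 194 in Daxx-KO versus 37.4 and 38.9 in WT. Msi2 is shown over chr11:88413115-88413234 (plus strand), in the gained highest site at 24 w.p.i. given above.
Mecom Pu.1 site: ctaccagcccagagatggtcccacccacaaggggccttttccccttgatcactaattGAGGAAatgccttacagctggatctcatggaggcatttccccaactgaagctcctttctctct
Hlf Pu.1 site: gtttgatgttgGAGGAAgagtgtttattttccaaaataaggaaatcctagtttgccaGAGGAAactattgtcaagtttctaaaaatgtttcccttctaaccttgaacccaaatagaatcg
Hmga2 Pu.1 site: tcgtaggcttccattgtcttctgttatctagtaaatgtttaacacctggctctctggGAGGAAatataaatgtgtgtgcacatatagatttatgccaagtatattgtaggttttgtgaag
Msi2 Pu.1 site: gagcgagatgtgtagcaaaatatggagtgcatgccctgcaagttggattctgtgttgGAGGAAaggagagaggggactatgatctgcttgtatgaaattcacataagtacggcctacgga

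Sites of 1 antibody that overlap between 3 and 24 w.p.i. come from different mice. For H3K27ac, 42 of 67 overlapping pairs with a direction at both times had the same direction, 62.7% beside 60.5% over all listed sites. At Meis1, 10 of 12 had the same direction and all 10 were gained. At Hlf, 4 of 6 had the same direction, again gained. At Msi2, 19 of 31 had the same direction, 14 of them lost. For H3.3, 44 of 85 pairs (51.8%) had the same direction, beside 51.2% over all sites, and for Pu.1 35 of 78 (44.9%), beside 47.9%. The H3.3 and Pu.1 sites at the 6 loci were thus gained at one time and lost at the other about as often as they kept their direction. H3K9me3 had only 4 such pairs, 2 of them with the same direction. With an overlap of at least 50% of the shorter site, both remaining H3K9me3 pairs had opposite directions.

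**Figure D5:**
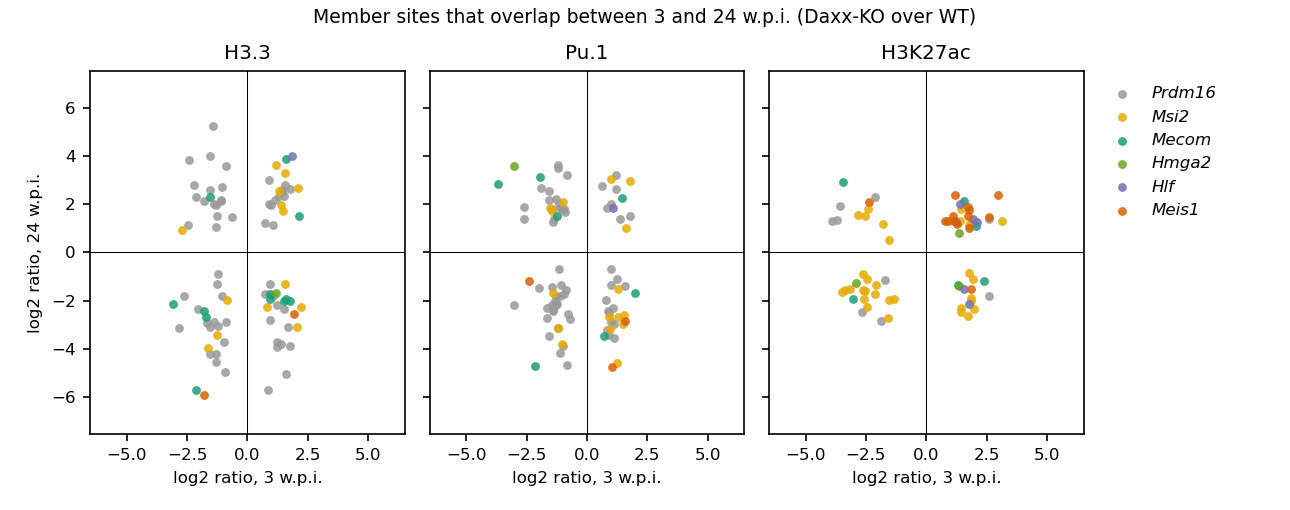
Log2 ratio of the group means (Daxx-KO over WT, 1 added to each mean) at 3 w.p.i. (horizontal) and 24 w.p.i. (vertical) for sites of the 6 loci that overlap between the times, with 1 panel each for H3.3, Pu.1 and H3K27ac and 1 colour per gene. Meis1 points for H3K27ac lie mostly in the upper right, Msi2 points for H3K27ac are many in the lower left, and the H3.3 and Pu.1 points spread over all 4 quadrants.

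Related genes did not share 1 direction. Over 12 partners and relatives, among them Pbx3, Hoxa9, Hmga1, Msi1 and the Hlf relatives Dbp and Tef, H3K27ac was gained at 34 and lost at 48 of 83 sites at 3 w.p.i. and gained at 103 and lost at 72 of 184 at 24 w.p.i. The shares gained were 41.5% and 58.9% beside 40.3% and 42.5% over all listed sites, so the earlier count is close to that of the whole table. Hoxa9, a partner of Meis1, had 4 gained and no lost H3K27ac sites at 3 w.p.i. and 10 gained and 1 lost at 24 w.p.i. Its H3K27me3 sites at 24 w.p.i. were 1 gained and 16 lost, so it was like Hlf and unlike Meis1 in these counts. Pbx3, another partner of Meis1, had 20 gained and 5 lost H3K27me3 sites at 24 w.p.i., and 17 gained and none lost in DKO against WT at 8 w.p.i. Meis2, the nearest relative of Meis1 in the list, had no gained and 35 lost H3K27me3 sites in DKO against WT. Over all listed sites, H3K27me3 was gained at 40.8% and lost at 56.8% at 24 w.p.i. In DKO against WT it was gained at 48.0% and lost at 41.6%.

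Over 16 other genes of stem cells, including Kit, Tek, Procr and Mllt3, H3K27me3 was gained at 56 and lost at 4 of 77 sites in DKO against WT at 8 w.p.i., beside 48.0% gained and 41.6% lost over all sites. In Daxx-KO against WT at 24 w.p.i. it was gained at 38 and lost at 105 of 153, beside 40.8% and 56.8%. These counts lean the same way as those of the 6 loci together, where 85 of the 126 losses at 24 w.p.i. lay at Prdm16. H3K27ac at the 16 genes was gained at 52 and lost at 88 of 150 sites at 3 w.p.i. and gained at 103 and lost at 124 of 232 at 24 w.p.i., shares of 37.1% and 45.4% near the 40.3% and 42.5% over all listed sites. Mllt3, which helps to maintain stem cells, had 6 gained and 25 lost H3K27ac sites at 3 w.p.i. and 3 gained and 21 lost at 24 w.p.i., a balance like that of Msi2.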

How the data were processed

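CUT&Tag libraries of sorted mouse HSPCs were compared by the authors with diffReps 1.55.6 on mm10, with windows of 600 bp moved by 50 bp and a window cutoff of 0.0001, per the file headers. The submitters' processing notes name CASAVA 1.8.4, cutadapt 1.13, STAR 2.5.3 and bedtools. The deposited signal values are normalized counts, reads divided by a constant per library. The columns with the authors' group means, fold changes and p-values were not used. Reads on X and Y had been removed by the authors at 24 w.p.i. Of 62 libraries, 54 are in the 14 tables analysed, and 8 DKO libraries at 24 w.p.i. were not analysed here. A 15th table, of H3K27me3 in Daxx-KO at 8 w.p.i., was left out because its control columns are named as H3K9me3 libraries.

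Sites were joined to GENCODE M21 gene bodies with 20 kb flanks. Promoters came from RefSeq (mm10 coordinates), and all 9 promoters of the 6 genes were identical to the genome sequence. Named sites were those within 1 kb of a start, the highest per gene and table, the largest gain and loss with a mean of at least 10 in the higher group, and overlapping sites. Members and lists were chosen with earlier results of these data known. No test was made. Python 3.11.15, pandas 2.3.3 and pysam 0.24.0 were used, and 9 of 9 checks on simulated data passed. Other flanks, filters, scalings and overlaps, and leaving out each library, were tried. A few items are not reported here.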

Additional observations from a re-analysis of the deposited data

Results flagged for a closer look

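Member sites of 1 antibody that overlap between 3 and 24 w.p.i. but have opposite directions are listed here, because every Daxx-KO library lay on one side of every WT library at one time and on the other side at the other time. There were 41 such pairs of 85 with a direction at both times for H3.3, 43 of 78 for Pu.1, 25 of 67 for H3K27ac and 2 of 4 for H3K9me3. Over all listed sites there were 21556 of 44129 for H3.3, 27791 of 53295 for Pu.1, 15728 of 39859 for H3K27ac and 5958 of 13930 for H3K9me3. For H3.3, Pu.1 and H3K27ac, opposite pairs were thus about as common over all listed sites as at the 6 loci. The difference between the times was not tested, and the mice at the 2 times are different.

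The H3K27ac pairs with opposite directions included 12 at Msi2 and 2 at Meis1. At Msi2, 1 such pair lies at the first start, where chr11:88718951-88719600 was at 12.6 and 13.6 normalized counts in Daxx-KO against 49.4 and 45.2 in WT at 3 w.p.i., and chr11:88719001-88719600 was at 75.7 and 68.8 in Daxx-KO versus 17.9 and 45.9 in WT at 24 w.p.i.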

How the results depend on the processing

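No paired analysis was possible because the results come from no test and libraries with the same number are from different mice. Over the 6 loci, scaling by mean reads per window moved the share gained from 53.4% to 62.7% for H3.3 and from 43.1% to 56.3% for Pu.1 at 3 w.p.i. Over all listed sites the same scaling moved it from 59.7% to 65.8% and from 56.4% to 63.8%. A mean of at least 20 in the higher group moved it to 62.5% for H3K27ac at 3 w.p.i. and 90.9% for H3K27me3 in DKO against WT, and an absolute log2 ratio of at least 1 moved it to 18.6% for H3K27me3 at 24 w.p.i. The share of H3K9me3 sites with the same direction at both times was 0.0% with an overlap of 50%. No gained or lost call at a named site reversed, and 8 of 105 named sites became mixed when scaled by mean reads per window. Leaving out 1 library cannot undo a gained or lost call as defined here, and it can only give a direction to mixed sites. The narrow ranges that follow are set by the mixed sites and do not measure stability. With 1 library left out, the share over the 6 loci for H3.3 lay between 52.6% and 53.9% at 3 w.p.i. and between 48.7% and 49.2% at 24 w.p.i. For Pu.1 the bounds were 42.7% and 43.5%, then 41.5% and 42.4%, and for H3K27ac 51.5% and 52.9%, then 46.4% and 47.0%. For H3K27me3 they were 76.3% and 79.5% in DKO against WT, 74.2% and 79.4% in DKO against Daxx-KO, and 26.4% and 27.3% in Daxx-KO at 24 w.p.i. For H3K9me3 they were 70.0% and 70.0% at 3 w.p.i. and 62.2% and 65.8% at 24 w.p.i. Of 648 recomputed log2 ratios at named sites, 612 stayed within 1 SD between libraries. That SD comes from the same libraries, so sites with unequal libraries pass more easily and the count does not measure stability. Most of these ratios come from leaving out 1 library, where 428 stayed within it and 10 did not. With scaling by mean reads per window, 88 stayed within it and 17 did not. Regions with no listed site have no value, so no limit could be set on changes there.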

Other observations

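Downstream of Prdm16, around chr4:154311801-154313000, 3 antibodies had their highest site at the locus at 24 w.p.i., and each was mixed because 1 library stood apart. H3.3 was at 208 and 199 normalized counts in Daxx-KO against 187 and 498 in WT. H3K27ac over chr4:154311751-154312550 was at 142 and 138 in Daxx-KO versus 471 and 131 in WT. H3K9me3 over chr4:154312001-154312800 was at 45.9 and 433 in Daxx-KO against 124 and 147 in WT. The library that stood apart was from a different mouse each time.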
